A study of Arabidopsis thaliana with 3 samples.

Results

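The 10 genes described here make or control aliphatic glucosinolates in leaves of Arabidopsis thaliana. They were taken by locus number from a list of the pathway, out of 33602 genes counted. The list sets no threshold on measured values, but it was drawn up with earlier results of these data known. They comprise the regulators MYB28 (AT5G61420), MYB29 (AT5G07690) and MYB76 (AT5G07700), the chain elongation genes BCAT4 (AT3G19710), MAM1 (AT5G23010) and MAM3 (AT5G23020), and the core synthesis genes CYP79F1 (AT1G16410), CYP79F2 (AT1G16400), CYP83A1 (AT4G13770) and SOT18 (AT1G74090). All 10 reached 30 counts over the 3 libraries, as did 20109 genes in all.

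The series holds 1 RNA-seq library for each of 3 groups, all from first-pair rosette leaves of accession Col-0, with no mutant or transgene named. The groups are wounded leaf explants at 2 days, a control of the same time (the 2 d control) and a starting control (T0); 12 days after sowing is given for all of them. The labels do not say to which time point that age refers, and the 2 d leaves may be older than those of T0. Plants grew on 1/2 MS medium in 16 h light, and explants were kept on B5 medium without carbohydrate. The series text names the cut site and the remaining leaf, but the labels do not tie either to a library, and how many leaves were pooled is not given.

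Aliphatic glucosinolates are sulfur-rich defence compounds that Brassicaceae make from methionine. In a first stage BCAT4 removes the amino group of methionine and the MAM synthases, with an isomerase and a dehydrogenase, lengthen the chain by cycles like those of leucine synthesis. In a second stage CYP79F and CYP83A1 enzymes oxidise the elongated amino acid, sulfur is added, and a glucosyl transferase and a sulfotransferase such as SOT18 finish the core. MYB28 is the main activator of these genes in leaves, MYB29 and MYB76 act beside it, and on tissue damage myrosinases split the stored products into toxic isothiocyanates or nitriles.

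Library totals were 46713257 counts in explants, 45097732 in the 2 d control and 43099934 at T0. Each group being a single library, no p-value, SD or replicate check was possible. Levels are CPM, counts scaled by TMM to a common library size, and ratios are given with their exact 95% interval in brackets, which covers counting error only. Higher and lower calls require the whole interval to lie beyond 2-fold; they set library against library, not condition against condition. RNA of leaf mesophyll was abundant in every library, with the RuBisCO gene RBCS1A at 1712, 2001 and 2395 CPM in explants, the 2 d control and at T0. Another mesophyll gene, LHCB1.2, differed more, at 229, 367 and 3377 CPM. The root hair genes EXPA7 and RSL4 had 0 counts throughout, while SCR, also listed as a root marker, stood at 44.1, 46.0 and 23.5 CPM.

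Together the 10 genes held 778 CPM in explants, 460.0 CPM in the 2 d control and 186 CPM at T0. In 8 of them the level was lowest at T0, intermediate in the 2 d control and highest in explants; MYB28 and MYB76 did not follow that order. In RNA of whole tissue fewer cells of a type and less RNA per cell cannot be told apart. Against the 2 d control 4 members were higher in explants and 0 lower, beside 10.04% higher and 6.74% lower of all genes tested. Against T0 9 were higher in explants and 0 lower, beside 17.8% and 13.3%, and 4 were higher in the 2 d control than at T0 and 0 lower, beside 8.69% and 8.43%. The members' median log2 ratios were 1.07, 2.19 and 0.81 in these comparisons, against 0.00, 0.03 and 0.04 over all genes. The shares of all genes called are also the reference for the counts of the other lists below. Scaling by total counts moved the medians of all genes to 0.31 against T0 in either 2 d library, and ratios to T0 are relative to that shift. With it, 70.1% of calls were higher in explants than at T0 in place of 57.1%, and 67.7% in the 2 d control in place of 50.8%.

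**Figure D1:**
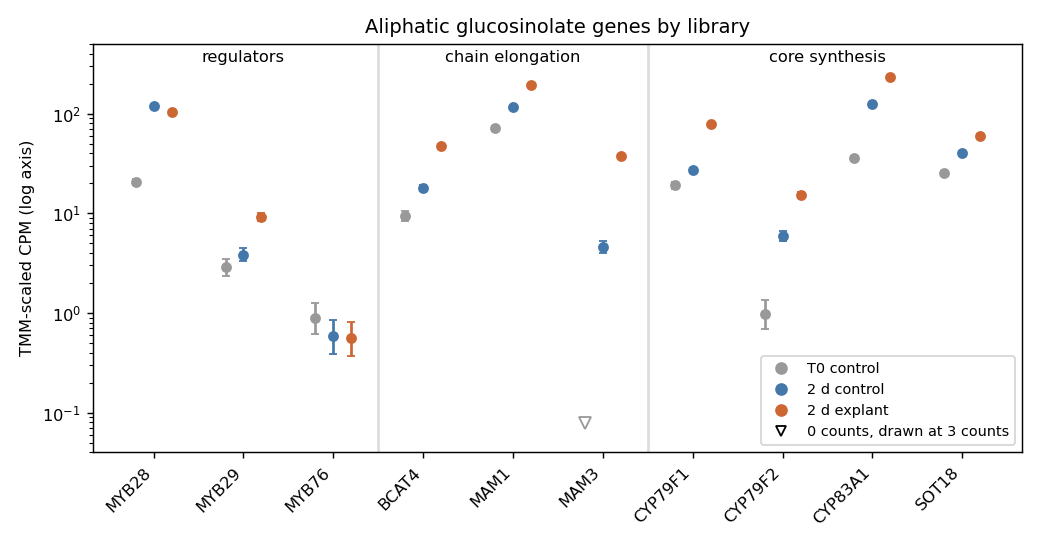
Scaled CPM (log axis) of the 10 genes in the T0 control, the 2 d control and explants, 1 point per library, with bars for the exact 95% Poisson counting interval. Most genes are higher in explants than at T0, and MYB28 is about level in the 2 d libraries at 119 and 104 CPM. MAM3, with 0 counts at T0, is drawn there at the value of 3 counts.

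Among the regulators, MYB28 was high in both 2 d libraries. It stood at 104 CPM in explants, 119 CPM in the 2 d control and 20.6 CPM at T0, from 5206, 5665 and 781 counts. Over T0, MYB28 was 5.76-fold higher in the 2 d control (5.35 to 6.22) and 5.03-fold higher in explants (4.67 to 5.43). For explants over the 2 d control the MYB28 ratio was 0.873 (0.841 to 0.907), well inside the 2-fold limits. MYB29, which in Arabidopsis is linked to the response of the pathway to methyl jasmonate, had its highest level in explants. Its level was 9.12 CPM in explants, 3.84 CPM in the 2 d control and 2.88 CPM at T0. Explants were 3.17-fold higher than T0 (2.57 to 3.95) and 2.38 times the 2 d control (2.00 to 2.84), an interval that ended just short of the limit. With DESeq2 size factors that MYB29 interval was 2.04 to 2.89, with total counts 2.03 to 2.88, and the gene was then called higher. MYB76, a close relative of MYB29 in the same regulator group, was low throughout, with 28, 28 and 34 counts in explants, the 2 d control and at T0. Its ratio of explant to T0 was 0.622 (0.363 to 1.06), so no difference could be detected with so few counts, here or in the other comparisons.

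The chain elongation genes were all higher in explants than at T0, and MAM3 stood apart from the rest. MAM3, a synthase that can extend chains through more cycles than MAM1, had 1871 counts in explants, 218 in the 2 d control and 0 at T0. Explants exceeded the 2 d control by 8.15-fold (7.08 to 9.42), the highest ratio of any member in that comparison. Set against a floor of 3 counts in the T0 library, MAM3 was at least 471-fold higher in explants and at least 57.7-fold higher in the 2 d control. By the same floor, 0 counts at T0 allow a level of up to 0.0791 CPM. The exact 95% interval used for the other values sets a wider limit on 0 counts, with lower limits of 382-fold and 46.6-fold and an upper limit of 0.0973 CPM at T0.

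MAM1, the synthase of the early elongation cycles, was by contrast well expressed at T0. It stood at 194 CPM in explants, 117 CPM in the 2 d control and 71.8 CPM at T0. Explants were 2.70-fold higher than T0 (2.59 to 2.82). The other ratios fell short of the limit, at 1.66 (1.61 to 1.72) for explants over the 2 d control and 1.62 (1.55 to 1.70) for that control over T0. BCAT4, the aminotransferase at the entry of the pathway, reached 47.9 CPM in explants, 17.8 CPM in the 2 d control and 9.42 CPM at T0. BCAT4 was 2.69-fold higher in explants than in the 2 d control (2.49 to 2.92) and 5.09-fold higher than at T0 (4.55 to 5.70). The 2 d control was 1.89 times T0 (1.67 to 2.14), and passed the rule only with total counts, at 2.27 (2.00 to 2.58). Of the BCAT4 exon bases 21.2% also lie in the neighbouring model AT3G19700, and with no strand setting given, reads there may have been set aside.

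In the core, the CYP79F genes, which encode the enzymes that commit elongated methionine to glucosinolates, were higher in explants than in either control. CYP79F1 stood at 78.4 CPM in explants, 27.1 CPM in the 2 d control and 19.1 CPM at T0. The explant level was 2.90-fold higher than that of the 2 d control (2.72 to 3.09) and 4.12-fold higher than that of T0 (3.80 to 4.46). The 2 d control exceeded T0 by 1.42 times (1.30 to 1.56), which was not a call. CYP79F2, the tandem neighbour whose enzyme acts on long-chain substrates, stood at 15.2, 5.89 and 0.976 CPM. CYP79F2 was 2.59-fold higher in explants than in the 2 d control (2.25 to 2.98), and 15.6-fold higher than at T0 (11.2 to 22.3), where it had 37 counts. From T0 to the 2 d control it was 6.03-fold higher (4.27 to 8.75).

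CYP83A1, the oxidase that follows CYP79F, stood at 232 CPM in explants, 125 CPM in the 2 d control and 35.5 CPM at T0. Over T0, CYP83A1 was 6.53-fold higher in explants (6.17 to 6.91) and 3.52-fold higher in the 2 d control (3.32 to 3.74). Its ratio of explant to 2 d control was 1.85 (1.80 to 1.91), just under the limit. SOT18, the sulfotransferase of the last core step, had the least range among the enzymes. It stood at 59.9 CPM in explants, 39.9 CPM in the 2 d control and 25.1 CPM at T0. SOT18 was 2.39-fold higher in explants than at T0 (2.22 to 2.57). Its ratios were 1.50 (1.42 to 1.59) for explants over the 2 d control and 1.59 (1.47 to 1.72) for that control over T0.

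**Figure D2:**
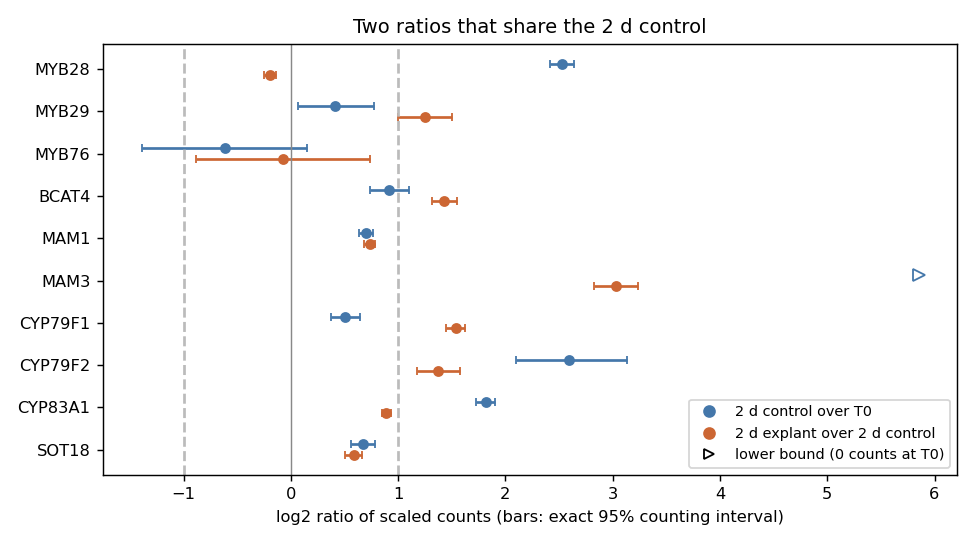
Log2 ratio of the 2 d control over T0 and of explants over the 2 d control for each gene, with exact 95% counting intervals and dashed lines at 2-fold; these ratios share the 2 d control. MYB28 and CYP83A1 pass the rule only in the 2 d control over T0. CYP79F1 and BCAT4 pass it only in explants over the 2 d control, and CYP79F2 and MAM3 in both ratios. MAM3 over T0 is drawn as a lower bound.

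Side by side, the calls took several shapes. MYB28 and CYP83A1 were called between T0 and the 2 d control and not between that control and explants. CYP79F1 and BCAT4 were called in the reverse manner, and CYP79F2 and MAM3 in both comparisons. MAM1, SOT18 and MYB29 were called in neither, but were higher in explants than at T0. The differences between these ratios were not tested, and the ratios share the 2 d control. Explants and the 2 d control are parallel libraries of the same day and do not follow each other in time.

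Per kilobase of coding sequence, which allows genes to be compared within a library, the order of levels also differed. In explants CYP83A1 led at 154 CPM per kb, followed by MAM1 at 121 and MYB28 at 94.2. In the 2 d control MYB28 led at 108 CPM per kb, above CYP83A1 at 82.9 and MAM1 at 72.6. At T0 MAM1 led at 44.8 CPM per kb, SOT18 and CYP83A1 followed at 23.8 and 23.5 with overlapping intervals, and MYB28 was the fourth at 18.7. CYP79F1 and BCAT4 had overlapping intervals in the 2 d control, at 16.7 CPM per kb each, as did CYP79F2 and MYB29 in explants, at 9.44 and 9.02. The lead of MYB28 in the 2 d control rested on the choice of length. Per kilobase of transcript, which includes the untranslated parts and was added as an alternative after the data were seen, CYP83A1 stood at 65.5 CPM, MYB28 at 62.5 CPM and MAM1 at 60.6 CPM, and the intervals of neighbours overlapped. The overlaps of CYP79F1 with BCAT4 and of CYP79F2 with MYB29 also rested on that choice. Per kilobase of transcript BCAT4 stood at 12.3 CPM (11.4 to 13.1) and CYP79F1 at 9.87 CPM (9.34 to 10.4) in the 2 d control. In explants CYP79F2 stood at 7.55 CPM (7.02 to 8.10) and MYB29 at 5.27 CPM (4.80 to 5.77). CYP83A1 led explants and MAM1 led T0 with either length, and MYB28 was the fourth at T0 with either.

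Shares within a gene family need no scaling between libraries. MYB28 made up 91.5% of the counts of the 3 MYB genes in explants (90.7 to 92.2, exact Clopper-Pearson interval), 96.4% in the 2 d control (95.9 to 96.9) and 84.5% at T0 (82.0 to 86.8). MYB29 held 8.05%, 3.11% and 11.8% in the same order. MYB28 was thus the most abundant of the 3 MYB genes in every library, with its highest share in the 2 d control.

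CYP79F1 held 83.7% of the CYP79F counts in explants (82.7 to 84.8), 82.1% in the 2 d control (80.1 to 84.0) and 95.1% at T0 (93.3 to 96.5). The explants and 2 d control intervals overlap, and T0 lies above them. MAM1 made up 83.9% of the MAM counts in explants (83.2 to 84.5), 96.2% in the 2 d control (95.7 to 96.7) and 100% at T0 (99.86 to 100). In each tandem pair the partner linked to longer chains, MAM3 or CYP79F2, thus had its lowest share at T0.

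The paired genes are similar in sequence. In the TAIR10.1 reference the coding sequences of CYP79F1 and CYP79F2 are 91.9% identical, those of MAM1 and MAM3 83.8%, and those of MYB29 and MYB76 78.1%, and no protein-coding gene lies between the partners. Of the 50-base stretches of the CYP79F1 transcript 2.00% occur more than once in the genome, as do 2.74% for CYP79F2 and 0% for the other members. Whether reads from those stretches were counted depends on read length and pairing, which are not given here.

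**Figure D3:**
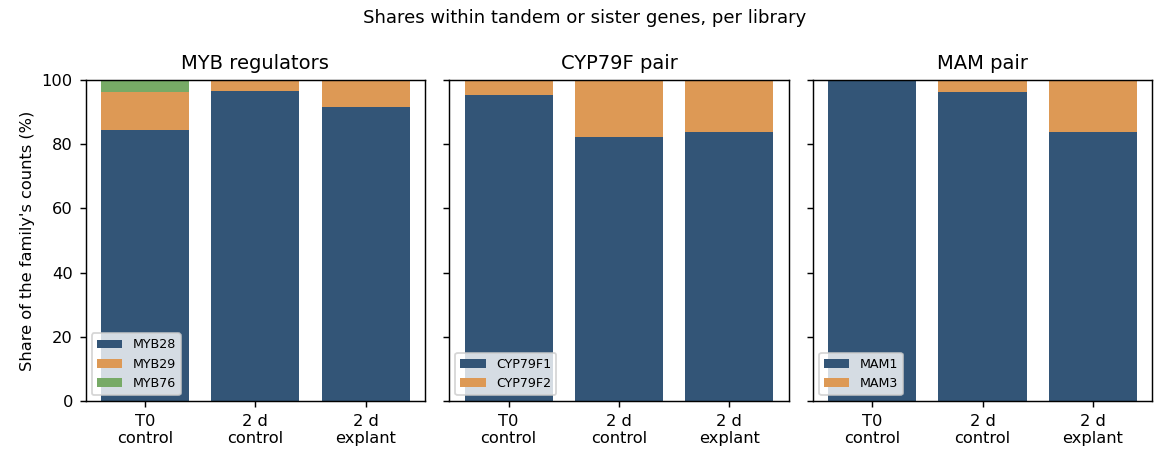
Share of counts (%) that each gene holds within the MYB, CYP79F and MAM groups, as stacked bars for the 3 libraries. MAM3 holds no counts at T0 and the remainder beside 83.9% MAM1 in explants, CYP79F1 holds 95.1% at T0 and 82.1% to 83.7% in the later libraries, and MYB28 is the largest MYB share in each library.

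The ratio of enzyme to regulator RNA within a library likewise needs no scaling. The 7 member enzymes had 6.41 counts per MYB28 count in explants (6.22 to 6.60), 2.84 in the 2 d control (2.75 to 2.92) and 7.86 at T0 (7.29 to 8.48). The 2 d control was the lowest of the libraries, with an interval apart from the others, and it was also the lowest without MAM3, at 2.80 against 6.05 and 7.86. For CYP79F1 alone the ratio to MYB28 was 0.757 in explants, 0.228 in the 2 d control and 0.924 at T0. The 2 d control thus combined the highest MYB28 level with enzyme RNA below that of explants.

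SDI1 and SDI2, sulfur-deficiency genes known in Arabidopsis to hold back aliphatic glucosinolate synthesis, were highest in the same library. SDI1 (AT5G48850) had 44 counts in explants, 693 in the 2 d control and 12 at T0, or 0.876, 14.5 and 0.317 CPM. SDI1 was 16.6 times lower in explants than in the 2 d control (12.2 to 23.0) while that control was 45.9-fold above T0 (26.1 to 89.2). SDI2 (AT1G04770) stood at 8.26, 20.5 and 5.80 CPM, 2.49 times lower in explants than in the 2 d control (2.21 to 2.80) and 3.54-fold higher in that control than at T0 (3.06 to 4.12). Of the SDI2 exon bases 27.4% also lie in AT1G04760, so its counts are uncertain. The part of either gene in the enzyme to MYB28 ratio was not tested.

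**Figure D4:**
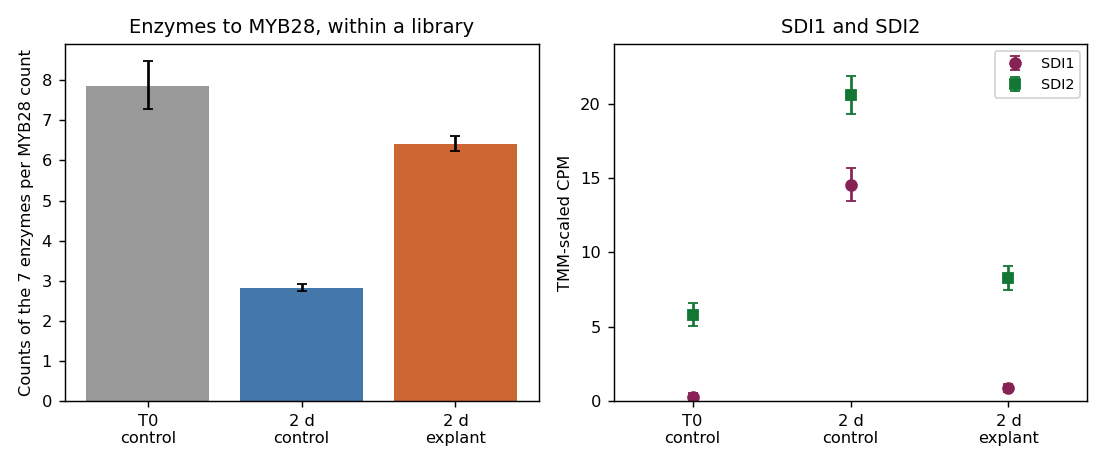
Left, counts of the 7 member enzymes per MYB28 count in each library, bars from 0 with exact 95% intervals; right, scaled CPM of SDI1 and SDI2 with Poisson counting intervals. The 2 d control has the lowest enzyme ratio, 2.84, and the highest SDI1 and SDI2, at 14.5 and 20.5 CPM.

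Other regulators gave a mixed picture. Of 8 on the list, 0 were higher and 2 lower in explants against the 2 d control, both named above, with a median log2 ratio of -0.46. MYC4, one of the bHLH partners through which jasmonate acts on the MYB factors, was 4.51-fold higher in explants than at T0 (3.96 to 5.16) and 3.73-fold in the 2 d control (3.26 to 4.27). Its relative MYC2 was 2.51 times lower in explants than at T0 (2.42 to 2.61) and 2.84 times lower in the 2 d control (2.73 to 2.96). The explant call for MYC2 was lost with total counts, and 98.5% of its exon bases lie in another gene model, so its counts are uncertain. MYC3 passed in no comparison, at 89.1, 105 and 68.2 CPM in explants, the 2 d control and at T0.

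Other enzymes of chain elongation were also called higher and not lower. Of 6 measured, 2 were higher in explants than in the 2 d control, 4 higher than at T0 and 0 lower in any comparison, with median log2 ratios of 0.89 and 1.85. IPMI-SSU2, a small subunit of the isomerase, stood at 73.6, 25.2 and 6.12 CPM. It was 2.92-fold higher in explants than in the 2 d control (2.73 to 3.11), 12.0-fold higher than at T0 (10.5 to 13.8), while that control was 4.12-fold above T0 (3.58 to 4.77). IPMI-SSU3, the other specialised small subunit, was 2.45-fold higher than in the 2 d control (2.23 to 2.69) and 3.61-fold higher than at T0 (3.21 to 4.07). IPMDH1, the dehydrogenase of the cycle, was 5.37-fold higher in explants than at T0 (4.97 to 5.82) and 2.66-fold in the 2 d control (2.44 to 2.89). BCAT3 and IPMI-LSU1, enzymes that also serve leucine synthesis, had explant to T0 log2 ratios of 0.70 and 0.56 and were not called.

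The related genes of branched-chain amino acid metabolism showed other values. None of 8 was higher in any comparison, and their median log2 ratios were 0.33 in explants over the 2 d control and 0.14 over T0. The leucine synthases IPMS1 and IPMS2, relatives of the MAM genes, had explant to T0 log2 ratios of 0.03 and -0.31. IPMI-SSU1, the small subunit for leucine synthesis, had 0.35, beside 3.59 for IPMI-SSU2. The genes called lower against T0 were BCAT1, 6.40 times lower in explants (5.85 to 7.02) and 3.50 times in the 2 d control (3.26 to 3.77), and BCAT2, 4.33 times (3.90 to 4.82) and 6.06 times (5.36 to 6.87). These aminotransferases are known from the breakdown of branched-chain amino acids. With total counts 1 of the 8 genes was called higher in explants than at T0.

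Of 7 other core enzymes, 1 was higher in explants than in the 2 d control, beside 10.04% of all genes tested. Against T0 4 were higher in explants, beside 17.8%, and 0 were lower in either comparison. The median log2 ratios were 0.59 and 1.27. GSTU20, a glutathione transferase assigned to the aliphatic branch, was 2.69-fold higher in explants than in the 2 d control (2.60 to 2.79) and 5.69-fold higher than at T0 (5.41 to 5.98). SOT17, a sister of SOT18, was 4.47-fold higher in explants than at T0 (3.91 to 5.13) and 3.49-fold in the 2 d control (3.04 to 4.02). SUR1, the lyase shared by the aliphatic and indole branches, was 2.58-fold higher in explants than at T0 (2.45 to 2.73). UGT74B1 and UGT74C1, the glucosyl transferases, passed in no comparison. Of the exon bases 18.6% of UGT74C1 and 100% of GSTF11, also among the 7, lie in other gene models too, so their counts are uncertain. From T0 to the 2 d control 1 of the 7 was called, and 3 with total counts.

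Side-chain genes, which set the final form of the compound, had 1 of 7 measured higher in explants than in the 2 d control. Against T0 3 were higher in explants. The shares of all genes tested were 10.04% and 17.8%. FMO GS-OX4, one of the S-oxygenases that turn methylthio into methylsulfinyl side chains, was 2.86-fold higher in explants than in the 2 d control (2.58 to 3.17), at 30.01 CPM against 10.5, and stood at 21.8 CPM at T0. FMO GS-OX3 was 5.39-fold higher in explants than at T0 (4.40 to 6.66) and FMO GS-OX1 2.69-fold (2.29 to 3.18). In the 2 d control FMO GS-OX2 was 2.95-fold higher than at T0 (2.47 to 3.55) and FMO GS-OX3 2.93-fold (2.36 to 3.66). AOP2, of which Col-0 is known to carry a copy without a working enzyme, was 5.45-fold higher in explants (4.39 to 6.83) and 3.84-fold in the 2 d control (3.07 to 4.84). AOP3 had 0 counts in every library.

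Genes for sulfur supply, which glucosinolate synthesis draws on for reduced sulfur and for the sulfate group, were called higher over T0 and not lower. Of 15 measured, 10 were higher in explants than at T0 and 7 in the 2 d control, with median log2 ratios of 1.24 and 1.06, and 0 were lower. APR3, one of the reductases that lead sulfate to cysteine, was 7.31-fold higher in explants than at T0 (6.78 to 7.89) and 7.24-fold in the 2 d control (6.72 to 7.82). APK1 and APK2, kinases that make the sulfate donor used by SOT18, were 2.21-fold (2.06 to 2.36) and 2.37-fold higher in explants than at T0 (2.21 to 2.54).

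Between explants and the 2 d control 1 of the 15 sulfur genes was called, with a median log2 ratio of -0.08. Of all genes tested 10.04% were higher and 6.74% lower in that comparison. The sulfur gene called was SULTR1;2, a high-affinity sulfate uptake transporter known mainly from roots, at 144, 15.5 and 3.38 CPM. It was 9.33-fold higher in explants than in the 2 d control (8.65 to 10.1) and 42.7-fold higher than at T0 (35.9 to 51.3). The low-sulfur marker LSU2 was 15.4-fold higher in explants than at T0 (9.36 to 27.3) and 23.2-fold in the 2 d control (14.2 to 41.0). LSU1 had 34, 66 and 1 counts in explants, the 2 d control and at T0.

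Of 5 methionine genes, MS2, a methionine synthase, was higher in explants than in the 2 d control, by 3.47-fold (3.33 to 3.62). Against T0 MS2 was 2.57-fold higher (2.47 to 2.67) and CGS1, which controls entry into methionine synthesis, 2.68-fold (2.60 to 2.76). MGL, which degrades methionine, was 2.66 times lower in explants than at T0 (2.37 to 2.99), a call lost with total counts.

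Genes that act on finished glucosinolates gave other values than those of synthesis. The 3 glucosinolate transporter genes GTR1, GTR2 and GTR3 were called in no comparison. GTR3 had only 83, 47 and 40 counts in explants, the 2 d control and at T0. Of its exon bases 30.7% also lie in another gene model, as do 17% of those of GTR1. Of 7 measured breakdown genes, 0 were higher and 1 lower in explants against the 2 d control, and 1 higher and 2 lower against T0. The myrosinase TGG1 stood at 790.0, 1488 and 2080 CPM and TGG2 at 244, 597 and 691 CPM. TGG2 was 2.45 times lower in explants than in the 2 d control (2.40 to 2.50) and 2.84 times lower than at T0 (2.77 to 2.90), and TGG1 2.63 times lower than at T0 (2.60 to 2.67). Per count of TGG1 and TGG2 the 7 member enzymes had 0.643 counts in explants, 0.162 in the 2 d control and 0.0584 at T0. ESM1, which favours isothiocyanate over nitrile formation, was 3.52-fold higher in explants than at T0 (3.45 to 3.60) and 2.59-fold in the 2 d control (2.53 to 2.65); 22.3% of the 50-base stretches of its transcript occur more than once in the genome.

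**Figure D5:**
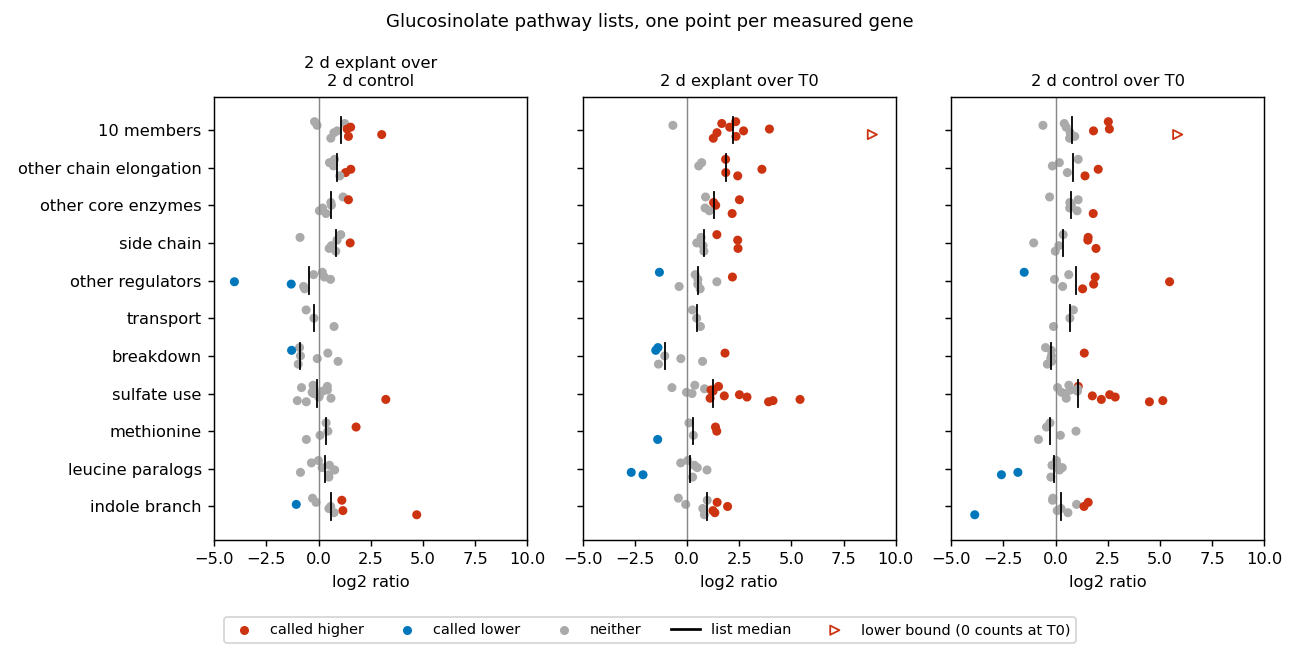
Log2 ratio of each measured gene in the pathway lists for the 3 comparisons, coloured by call, with a bar at the list median and open triangles for the lower bound of MAM3. The medians of the members lie at 1.07, 2.19 and 0.81, sulfur genes sit near 0 in explants over the 2 d control at -0.08, and the medians of breakdown genes lie below 0.

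The indole branch, which makes glucosinolates from tryptophan, had 3 of 9 measured genes higher and 1 lower in explants against the 2 d control. Over T0 it had 4 higher and 0 lower in explants, and 2 higher and 1 lower in the 2 d control. CYP81F2, which modifies indole glucosinolates, stood at 58.1, 2.22 and 32.8 CPM in explants, the 2 d control and at T0. The 2 d control was thus the low library: CYP81F2 was 26.2-fold higher in explants than there (21.6 to 32.1), 14.8 times lower there than at T0 (12.1 to 18.2), and 1.77 times T0 in explants (1.66 to 1.90), which was not a call. GSTF9, a glutathione transferase, was 2.24-fold higher in explants than in the 2 d control (2.20 to 2.28). MYB51, an activator of the branch, was 2.16-fold higher in explants (2.01 to 2.32), with the lower limit of its interval close to 2-fold. CYP79B3, of the entry step, was 2.10 times lower in explants (2.00 to 2.21), a call lost with DESeq2 size factors, with total counts and with a stricter interval. Over T0, CYP83B1, the indole counterpart of CYP83A1, was 3.83-fold higher in explants (3.70 to 3.98) and 2.57-fold in the 2 d control (2.47 to 2.67). CYP79B2, of the entry step, was 2.71-fold (2.53 to 2.91) and 2.95-fold higher (2.75 to 3.17), and GSTF10 was 2.51-fold higher in explants (2.45 to 2.58). Of the CYP83 counts CYP83A1 held 40.2% in explants (39.6 to 40.7), 35.1% in the 2 d control (34.4 to 35.8) and 28.3% at T0 (27.0 to 29.6).

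Markers of cell types and of the time of day also differed between the libraries. Glucosinolate synthesis genes are known to be active around leaf veins. Of 5 phloem markers, 4 were lower in explants than in the 2 d control and 0 higher, and the list summed to 530.0 CPM in explants, 1185 CPM in the 2 d control and 935 CPM at T0. Of 4 xylem markers, 1 was lower in that comparison and 4 were lower in explants than at T0, with sums of 19.7, 38.3 and 115 CPM. Of the phloem markers the sugar exporter gene SWEET12 was 3.75 times lower (3.59 to 3.92), the sucrose loader gene SUC2 2.24 times (2.17 to 2.30) and SWEET11 2.10 times lower (2.04 to 2.15) in explants than in the 2 d control. Against T0 the xylem protease gene XCP2 was 7.02 times lower in explants (6.31 to 7.84). No phloem or xylem marker was at 0. The phloem marker APL was about level, at 21.1, 20.1 and 20.3 CPM in explants, the 2 d control and at T0. Against T0 2 of the 5 phloem markers were lower in explants and 0 higher. SWEET11 was there 1.73 times T0 (1.67 to 1.80) and SWEET12 0.672 times T0 (0.637 to 0.709), which were not calls. In the 2 d control 2 of the 5 were higher than at T0 and 0 lower. These were SWEET11, by 3.63-fold (3.50 to 3.77), and SWEET12, by 2.52-fold (2.42 to 2.63).

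The 3 guard cell and myrosin cell markers FAMA, MYB60 and SLAC1 passed in no comparison, with sums of 58.2, 65.2 and 61.4 CPM. Of the SLAC1 exon bases 43.0% also lie in other gene models, so its counts are uncertain. Of 4 mesophyll markers 0 were called between explants and the 2 d control, with sums of 3918, 5720 and 9626 CPM. Against T0 2 of them were lower in explants, LHCB1.2 by 14.8 times (14.5 to 15.0) and CA1 by 2.05 times (2.03 to 2.07). LHCB1.2 was also 9.20 times lower in the 2 d control than at T0 (9.06 to 9.35). Of 2 epidermis markers 1 was lower in explants. This was ATML1, by 4.50 times against the 2 d control (4.26 to 4.75) and 6.02 times against T0 (5.70 to 6.36). The other, PDF2, was called in no comparison, with explant ratios of 0.736 to the 2 d control (0.709 to 0.764) and 0.809 to T0 (0.776 to 0.842). Of 4 root markers 2 were measured, and none was called between explants and the 2 d control; the quiescent centre gene WOX5 had 30, 8 and 0 counts. The part of these cell types in the members' ratios was not tested.

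Of 10 clock genes 7 were lower in each 2 d library than at T0 and 1 was higher in explants, with median log2 ratios of -3.97 in explants and -4.30 in the 2 d control. PRR9 had 3, 1 and 627 counts in explants, the 2 d control and at T0. PRR7 stood at 5.54, 7.02 and 531 CPM and GI at 8.40, 4.34 and 419 CPM in the same order. LHY was the gene called higher, by 2.89-fold in explants over T0 (2.25 to 3.76), with 78 counts at T0. CCA1, by contrast, was 35.5 times lower in explants than at T0 (26.5 to 48.8). It had 46, 26 and 1233 counts in explants, the 2 d control and at T0. Between explants and the 2 d control 0 of the 10 clock genes were called, with a median of 0.28. The labels do not give the time of day of sampling, whose part in the members' ratios to T0 was not tested.

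The genes whose pattern came nearest to MYB28 were CYP706A5, PME1, MEB1, PPa2 and TAS1A, at distances of 0.04 to 0.08 between log2 CPM values centred over the 3 libraries. CYP706A5, a cytochrome P450 gene, had 85.8, 95.3 and 17.1 CPM in explants, the 2 d control and at T0. For CYP79F1 they were MAP65-5, PUB23, TSA1, ILL3 and CYCB1;3, at distances of 0.02 to 0.07. MAP65-5 had 138 counts in the 2 d control and 78 at T0, and CYCB1;3 had 86 and 51. Which genes come nearest is therefore uncertain. TSA1, a tryptophan synthase subunit gene, had 149 CPM in explants, 53.3 CPM in the 2 d control and 35.9 CPM at T0. Of 16815 genes, 32 lay within 0.25 of MYB28 and 100 within 0.25 of CYP79F1. Among the members MYB29 and BCAT4 lay nearest to CYP79F1, at 0.28 and 0.30, with MYB28 at 1.54 and MYB76 at 1.94. MYB29 had 183 counts in the 2 d control and 109 at T0, so the order of the nearest members is uncertain.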

How the data were processed

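Each deposited table lists unnormalized whole read counts by locus. HTSeq, FastQC and DESeq and the build TAIR10 are named, per the submitters' processing notes. Not given in the sources here are the aligner, annotation release, strand setting and kit. Lines that name no gene were left out of the totals: ambiguous reads made up 2.12% to 2.18% of reads per library and reads in no gene 0.677% to 0.763%.

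TMM factors came from edgeR 4.0.16 (R 4.3.3) over genes with at least 30 counts in the 3 libraries. A ratio of TMM-scaled counts was taken for each gene with a count in the reference library of the comparison, with 95% bounds by the exact Clopper-Pearson method applied to how its counts split between the libraries. There was no model test, since groups of 1 library give no spread. Intervals and floors (3 counts per library) cover counting error only, as PCR copies without molecular identifiers cannot be told from separate molecules. Log2 ratios used a prior count of 0.5.

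Gene names, coding lengths and repeated 50-base stretches came from TAIR10.1, which is not the named build, so no coordinates or sequences are given. All 124 listed genes matched by locus tag. All members are named; of each other pathway list and the clock, up to 3 genes higher and 3 lower per comparison by the nearer interval bound, some with counts only. Marker lists are given mainly as counts and sums. Others (such as MYC3, BCAT3, IPMS1, UGT74B1, APK1, WOX5, CCA1, LHCB1.2) were chosen after their values were seen. Members and lists were chosen with earlier results of these data known. Alternatives were DESeq2 1.42.0 size factors, total counts, TMM from the compared libraries, filters of 1 and 150 counts, a 4-fold limit, a 99.9% interval and a prior count of 5. Other tools were Python 3.11.15, scipy 1.17.1, numpy 2.4.6, pandas 2.3.3, Biopython 1.88 and matplotlib 3.10.9.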

Additional observations from a re-analysis of the deposited data

How the results depend on the processing

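No paired analysis was possible because each group had 1 library, and no library could be left out. The counts of members called were within 1.5 times the reported ones under each scaling, each filter and the stricter interval, and no called ratio of a member changed direction under the alternatives run. With the 4-fold limit 1 member in place of 4 was higher in explants than in the 2 d control (MAM3), 5 in place of 9 were higher than at T0, and over all genes 974 were higher and 369 lower in explants against the 2 d control, 1582 and 980 against T0, and 458 and 563 in the 2 d control against T0. The limit is stricter by construction. Of 66 list counts 29 moved by over 1.5 times with it, to between 0 and 2 genes, except for the sulfur list with 5 and 4 against T0. With total counts 7 list counts moved: those lower for the indole branch (explant against 2 d control), other regulators and methionine (explant against T0) became 0, and those higher became 1 for leucine (explant against T0), 3 for other core enzymes and 1 each for transport and methionine (2 d control against T0). DESeq2 size factors and the stricter interval each left 0 indole genes lower, the interval also 0 clock genes higher against T0, and without a filter 2 breakdown genes were higher in explants than at T0. Single listed genes with an interval that ends near 2-fold, such as MYB51 and APK1, can change call without moving a list count by over 1.5 times. MYB76 was not measured at the filter of 150 counts. Total counts moved 12 of 28 member ratios beyond their counting interval, and a prior count of 5 moved 2 of 30 member log2 ratios. Transcript in place of coding length, added after the data were seen, moved 26 of 30 member levels per kilobase beyond their interval, as the length enters each. Depth limits MYB76, whose intervals span about a 3-fold range, and the floor for MAM3 at T0.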
